A study of Homo sapiens with 6 samples.

Results

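The genes examined here were 9 genes of MHC class I antigen presentation: HLA-B, HLA-C, HLA-E and HLA-F, which encode class I heavy chains, B2M, which encodes the shared light chain, NLRC5, TAP1, TAPBP and PSMB9. They are 9 of 61191 gene names in GENCODE release 44 on the main chromosomes of hg38. An ATAC-seq peak was assigned to a gene if it lay within 1 kb of any of its transcription start sites, in its body or within 5 kb of its ends. Peaks of the 6 libraries that overlapped were merged into sites, and 41 of 166021 sites were assigned to these genes.

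Accessibility was measured in HLF, a poorly differentiated human liver cancer line of which the labels name no clone or genetic change. There were 3 libraries from cells given DMSO, the vehicle, and 3 from cells given 5 µM SNDX-5613. SNDX-5613 blocks the interaction of menin with MLL1, a histone H3 lysine 4 methyltransferase, and the study asked whether this changes chromatin accessibility. The labels state 24 h of treatment for both groups, whereas the study's text describes a longer one, so the duration is uncertain. Per the study's methods a replicate was 1 dish of cells divided between treatment and control, which the labels do not repeat, nor do they say that equal replicate numbers mark the same dish. A p-value measures the spread between these libraries. All 6 libraries carry 1 batch label.

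Class I molecules carry peptides from the cytosol to the cell surface, where CD8 T cells read them. Proteasome subunits such as PSMB9 cut the peptides, the TAP transporter moves them into the endoplasmic reticulum, and tapasin, the product of TAPBP, helps to load them. NLRC5 is the transactivator of these promoters: it is recruited by the RFX, CREB/ATF and NF-Y factors that sit on the SXY module of class I and B2M promoters, and interferon adds IRF factors.

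Promoter sequences are shown because the sites described below lie over them, and because CCAAT is the box that NF-Y binds. They are the 250 bases before the RefSeq start site (GRCh38.p14), which for each gene shown equals the GENCODE canonical start, read 5′ to 3′ on the strand of the gene. Capitals mark CCAAT, the interferon-stimulated response element core GAAANNGAA and the CRE half-site TGACG on either strand, so that ATTGG is a CCAAT box on the other strand.
HLA-B, chr6:31357180-31357429, minus strand: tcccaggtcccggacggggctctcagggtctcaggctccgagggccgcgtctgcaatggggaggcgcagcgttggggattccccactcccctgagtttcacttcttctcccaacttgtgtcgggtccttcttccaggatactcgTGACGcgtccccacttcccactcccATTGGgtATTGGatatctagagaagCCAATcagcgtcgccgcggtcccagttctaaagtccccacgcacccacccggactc
HLA-C, chr6:31272093-31272342, minus strand: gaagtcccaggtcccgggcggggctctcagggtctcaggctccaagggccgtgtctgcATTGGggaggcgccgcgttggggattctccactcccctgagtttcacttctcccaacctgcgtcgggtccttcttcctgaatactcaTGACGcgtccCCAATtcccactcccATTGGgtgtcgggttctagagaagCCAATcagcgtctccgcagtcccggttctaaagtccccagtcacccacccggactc
HLA-F, chr6:29723184-29723433, plus strand: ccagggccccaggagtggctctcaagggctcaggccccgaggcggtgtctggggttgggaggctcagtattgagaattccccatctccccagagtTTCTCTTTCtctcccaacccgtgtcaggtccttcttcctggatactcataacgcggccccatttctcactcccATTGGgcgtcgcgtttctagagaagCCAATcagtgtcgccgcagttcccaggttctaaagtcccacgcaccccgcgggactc
B2M, chr15:44711267-44711516, plus strand: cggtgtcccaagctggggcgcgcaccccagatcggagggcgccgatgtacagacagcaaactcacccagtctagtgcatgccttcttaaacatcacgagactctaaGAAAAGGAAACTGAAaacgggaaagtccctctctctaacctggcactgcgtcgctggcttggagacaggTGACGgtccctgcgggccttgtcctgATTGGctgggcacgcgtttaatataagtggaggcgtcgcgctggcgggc
TAP1, chr6:32853705-32853954, minus strand: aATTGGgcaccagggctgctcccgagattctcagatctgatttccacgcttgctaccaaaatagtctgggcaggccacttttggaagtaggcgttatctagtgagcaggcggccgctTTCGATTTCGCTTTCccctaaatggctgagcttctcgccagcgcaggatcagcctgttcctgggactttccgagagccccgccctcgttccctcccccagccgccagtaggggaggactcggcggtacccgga
TAPBP, chr6:33314079-33314328, minus strand: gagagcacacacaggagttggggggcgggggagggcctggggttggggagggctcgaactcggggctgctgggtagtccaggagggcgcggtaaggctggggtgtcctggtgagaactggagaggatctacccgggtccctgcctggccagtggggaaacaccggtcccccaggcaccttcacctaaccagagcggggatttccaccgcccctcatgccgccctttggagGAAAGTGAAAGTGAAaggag

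The promoter table held windows for 7 of the 9 genes, HLA-E and NLRC5 being the others. A CCAAT box lay in the window of 6 of these 7 genes, TAPBP being the exception, against 32% of 34943 promoters in the table. TAP1 and PSMB9 were counted separately, but their windows overlap and hold the same single box. It began 249 bases before the TAP1 start and 243 bases before the PSMB9 start. In HLA-B, HLA-C and HLA-F a box in the orientation of the gene began 56, 56 and 57 bases before the start. Each of these also held an inverted box, which began 81, 80 and 82 bases before it, and HLA-B and HLA-C held further boxes. In B2M the only box was inverted and began 49 bases before the start. The response element core was in 4 of 7 genes (HLA-F, B2M, TAP1 and TAPBP) against 6.87% of promoters, and in B2M, TAP1 and TAPBP it occurred as an overlapping pair. The CRE half-site was in 4 of 7 genes (HLA-B, HLA-C, B2M and PSMB9) against 21.2%. The NF-kB consensus GGGANTNCC was in 2 of 7, HLA-B and TAPBP, against 3.75%, and the STAT consensus TTCNNNGAA was in 1, in an alternative window of TAP1, against 6.56%. The GC box GGGCGG was in 4 of 7 genes against 42.5%. These matches describe the letters in the windows and show no binding.

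In each library a site was given the highest −log10 p of its peaks, the value that the peak caller assigns to the excess of reads over the local background. Sites with a peak in every library were ranked by this value within each library, and the rank is given as a percentile, with 100 for the strongest of 33405 sites. The height of a site is its summit pileup, the number of reads stacked at the highest point, divided by the genome-wide background pileup of that library. The background was 0.997 to 1.51 in 5 libraries and 0.211 in SNDX-5613 replicate 3, which was therefore much shallower and could show only sites at least 14.2 times its background, against 4.60 to 6.02 times in the others. In the ATAC-seq of a bulk culture, a site open in fewer cells and a site less open in every cell cannot be told apart.

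HLF chromatin showed the promoters of the mesenchymal genes VIM, ZEB1 and SNAI2 open in all 6 libraries. Of the hepatocyte genes ALB, APOA1, HNF4A and TTR, only TTR had a promoter peak, in 5 libraries. Of the blood cell genes, PTPRC and CD3E had none, whereas CD14 had a promoter peak in 5 libraries.

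The class I genes were open in both groups. Of the 9 genes, 8 had a promoter peak in all 6 libraries, against 64.5% of 20007 protein-coding genes, and the remaining gene was TAPBP. Of the 41 sites, 20 had a peak in all 6 libraries, against 20.1% of all sites. A further 7 lacked a peak only in SNDX-5613 replicate 3, and 12 were seen in 1 library, of which 9 lay in or near NLRC5, the longest of the genes. Gained sites, with a peak in each of the 3 treated libraries and in 0 of the 3 controls, numbered 0 among the members, against 0.147% of all sites. Lost sites, by the opposite rule, also numbered 0, against 1.18%. The authors' consensus sets, which combine the replicates of a group, both held all 20 sites present in every library, and both held 29 of the 41.

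Among the heavy chain genes, the promoter of HLA-C, a classical class I gene, ranked highest on average in DMSO, although HLA-E came within the spread between libraries. Its site at chr6:31271134-31272638 stood at percentiles of 99.7, 96.5 and 95.2 with DMSO and 96.7, 96.6 and 90.5 with SNDX-5613. Its heights were 246, 207 and 167 times background with DMSO and 182, 151 and 156 times with SNDX-5613. The groups overlapped, and the difference in mean percentile was -2.57 (exact two-sided permutation test, p = 0.6). A second summit of the same site, 358 bp downstream of the start, was present in all 6 libraries. Its heights were 62.2, 44.4 and 33.2 with DMSO and 33.3, 31.1 and 61.6 with SNDX-5613, again without separation. A further summit, 762 bp downstream, was also present in all 6 libraries. It reached 45.1, 52.1 and 38.01 with DMSO and 35.7, 25.8 and 37.91 with SNDX-5613. Every DMSO value there lay above every treated value, but DMSO replicate 3 only barely exceeded the shallow SNDX-5613 replicate 3. This separation was seen after the values were examined and was not tested.

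HLA-E encodes the ligand of the NKG2A receptor of natural killer cells. Its promoter site at chr6:30489108-30490339 stood at 94.6, 95.3 and 90.3 with DMSO and at 94.4, 94.9 and 97.9 with SNDX-5613. The highest value came from the shallow library, and the remaining values overlapped (difference 2.31, exact p = 0.5), although ranked by fold enrichment the site was higher in every treated library, as were 7.92% of all sites. A weaker summit inside the same site, 719 bp downstream of the start, had heights of 81.2, 65.9 and 62.9 with DMSO and 51.6 and 43.7 in SNDX-5613 replicates 1 and 2, and was not called in replicate 3. All 3 DMSO values of this shoulder thus lay above both values of the treated libraries that showed it, which was seen after the values were examined and was not tested.

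HLA-F, a nonclassical gene, had its promoter site at chr6:29723027-29723925. Percentiles were 92.6, 90.7 and 87.6 with DMSO and 88.3, 86.4 and 86.8 with SNDX-5613. DMSO replicate 3 lay below SNDX-5613 replicate 1, so the groups overlapped, with means of 90.3 ± 2.55 and 87.2 ± 1.03 (SD, n = 3, exact p = 0.2). Ranked by fold enrichment in place of −log10 p, the site did not overlap between groups and stood lower with SNDX-5613, as did 6.83% of all sites. Compared within replicate numbers it was lower in each of the 3 pairs, as were 16.5% of all sites, whereas limma with a replicate block gave an adjusted p of 0.977. A distal site in an intron at the far end of the gene, 14798 bp from the start and 212 bp from a start of HLA-F-AS1, stood at 54.5, 48.5 and 57.1 with DMSO and 53.9, 43.2 and 47.6 with SNDX-5613, again overlapping as groups but lower in each pair.

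HLA-B, the other classical gene, had a canonical promoter site at chr6:31356498-31357574. Its percentiles were 82.6, 74.5 and 69.2 with DMSO and 63.2, 69.9 and 68.7 with SNDX-5613. Only DMSO replicate 3 fell within the range of the treated libraries, and the means were 75.5 ± 6.76 and 67.3 ± 3.56 (SD, n = 3), a difference of -8.17 (exact p = 0.2). Ranked by fold enrichment, this site too was lower in all 3 treated libraries than in all 3 DMSO libraries, and by −log10 p it was lower in each pair of equal number. Its summit height changed by -0.21 on the log2 scale with an SE of 0.14 (limma, adjusted p = 0.55, or 0.568 with a replicate block), so the call rested on the ranking used.

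Long transcripts of HLA-B start further upstream, and a site over that start at chr6:31366769-31367433, 9894 bp from the canonical start, was also open. It stood at 59.5, 73.5 and 75.9 with DMSO and at 74.5, 69.2 and 76.0 with SNDX-5613. DMSO replicate 1 was the lowest and the other 5 libraries were intermixed (exact p = 0.6). The class I genes are near-identical copies of each other over much of their length, and how reads that match several copies were handled is not given in the sources used here, so their values are uncertain to that extent.

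The light chain gene B2M had its promoter site at chr15:44711103-44711990. Percentiles of 92.3, 86.9 and 76.2 with DMSO and 89.9, 87.7 and 87.7 with SNDX-5613 were measured. The treated libraries lay inside the range of the controls (difference 3.31, exact p = 0.7), at heights of 104 to 169 times background with DMSO and 119 to 144 times with SNDX-5613.

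TAP1, a subunit of the peptide transporter, and PSMB9, an immunoproteasome subunit, are transcribed in opposite directions from 1 promoter region, and 1 site at chr6:32853110-32854596 covered both starts. It stood at 86.5, 89.4 and 91.7 with DMSO and at 86.8, 92.8 and 96.4 with SNDX-5613. The groups overlapped, with a difference of 2.80 (exact p = 0.4), although the treated library was the higher in each of the 3 pairs of equal number, as at 16.2% of all sites. In limma with a replicate block its height had an adjusted p of 0.792. A second summit 416 bp upstream of the PSMB9 start was present in every library at heights of 151, 123 and 113 with DMSO and 113, 92.7 and 99.5 with SNDX-5613.

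**Figure D1:**
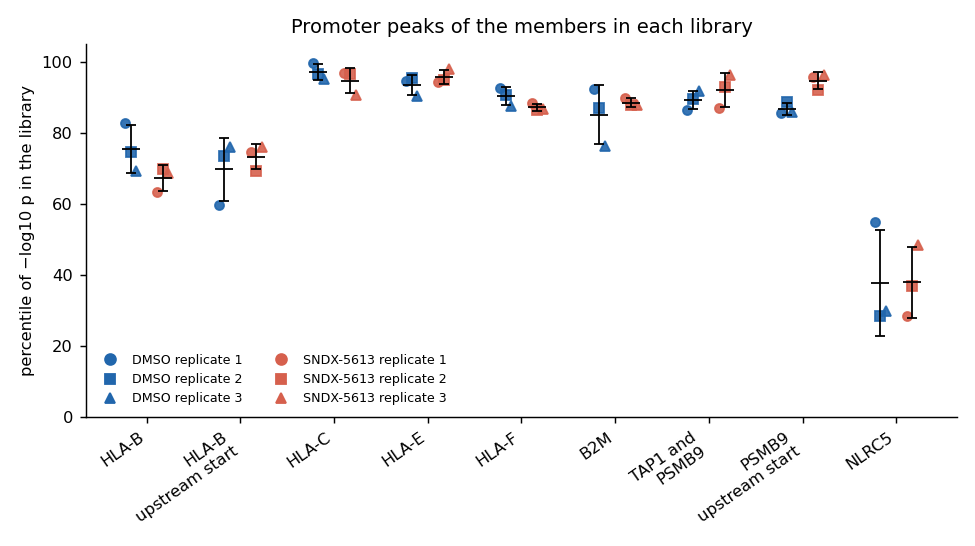
Percentile of −log10 p (y axis, 0 to 100, ranked over 33405 sites) at the promoter sites of the members. Points are libraries (blue DMSO, red SNDX-5613), and black bars are the mean and SD of 3 libraries. The groups overlap at 8 of the 9 sites drawn, the exception being the upstream start of PSMB9, shared with PSMB8, and only the NLRC5 promoter lies mostly below 50. TAPBP has no promoter site in all 6 libraries and is not drawn.

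TAPBP differed from the other members in that its promoter was weak and spread over 3 small sites. The site 581 bp upstream of the canonical start (chr6:33314487-33314779) had −log10 p values of 15.0, 22.3 and 23.1 with DMSO, 11.8 and 14.7 in SNDX-5613 replicates 1 and 2, and no peak in replicate 3. The site 43 bp upstream was called in 3 libraries. The one in an intron, 1180 bp downstream, was called in the 5 deeper libraries at heights of 72.2, 55.2 and 39.4 with DMSO and 38.9 and 42.4 with SNDX-5613. Among the 59986 sites present in all 5 deeper libraries, a set chosen after seeing the data, the upstream site stood at 26.1, 30.4 and 37.1 with DMSO and 13.4 and 21.8 with SNDX-5613, which do not overlap. With 2 against 3 libraries the smallest exact p is 0.1, and 14.4% of those sites were lower by the same rule.

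The strongest sites in the TAPBP window belonged to its neighbours. A site at chr6:33298755-33300224, 14618 bp downstream of the start and close to the end of the gene, stood at 73.4, 80.2 and 81.1 with DMSO and 77.7, 82.7 and 79.8 with SNDX-5613. The groups overlapped there and at the adjacent site near the start of RGL2, where means were 37.7 and 30.3 and the treated library was the lower in each pair of equal number.

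NLRC5, the transactivator, had the weakest canonical promoter among the genes with a promoter peak in every library. The site at chr16:56989328-56989898 stood at 54.9, 28.3 and 29.9 with DMSO and 28.5, 36.9 and 48.4 with SNDX-5613. The means, 37.7 ± 15.0 and 37.9 ± 9.97 (SD, n = 3), differed by 0.25 percentile points (exact p = 0.9).

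Away from the promoter, 3 of the 5 NLRC5 sites present in all libraries ranked lower in every SNDX-5613 library than in any DMSO library. Over all 20 member sites, 3 were lower by this rule and 2 higher, against 8.08% and 8.54% of the 33405 sites, and with so few sites these counts are no result about the members as a group. For each such site the exact p is 0.1, the smallest that 3 against 3 libraries allow.

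An intronic site of NLRC5 at chr16:57014681-57015116 (hg38), 25275 bp downstream of the start and 5881 bp from the nearest annotated start of the gene, showed the greatest fall of the 20. Its percentiles were 50.6, 59.2 and 51.4 with DMSO and 23.8, 21.9 and 17.6 with SNDX-5613. Heights were 47.1, 59.0 and 43.5 times background with DMSO and 26.2, 21.2 and 23.7 with SNDX-5613. Every treated library lay well below every control library, and the spread within each group was small against the gap. The value of the shallow SNDX-5613 replicate 3 came from a summit 25165 bp from the start, against 25277 bp in the other 5 libraries. The mean percentile fell from 53.7 ± 4.72 to 21.1 ± 3.17 (SD, n = 3).

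Summit heights were also compared by limma on log2(pileup + 0.5) after quantile normalization, fitted on all 33405 sites. The intronic NLRC5 site fell by 1.05 on this log2 scale (SE 0.19, adjusted p = 0.00797). It was the only member site called, against 0.266% of all sites called lower and 0.952% called higher. No member site was called higher, and at an unadjusted p under 0.05 there were 2 higher and 3 lower. Leaving out DMSO replicate 1, 2 or 3 kept the direction but ended the call, with adjusted p of 0.0641, 0.118 and 0.0681, and leaving out the shallow SNDX-5613 replicate 3 kept it, with a change of -0.99 and an adjusted p of 0.000207.

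The site upstream of NLRC5, at chr16:56985508-56986047 and 3801 bp before the start, stood at 44.5, 61.4 and 53.2 with DMSO and 40.5, 40.2 and 4.32 with SNDX-5613. The gap between the groups was narrow, and the lowest value came from the shallow library. Means were 53.0 ± 8.44 and 28.3 ± 20.8 (SD, n = 3), and without SNDX-5613 replicate 3 the difference went from -24.7 to -12.7, still without overlap. The height changed by -0.72 on the log2 scale (SE 0.25, limma, adjusted p = 0.199), which did not pass the threshold, nor did it with a replicate block (adjusted p = 0.0625).

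The third site, in an intron 11199 bp downstream of the start (chr16:57000114-57000903), was weaker. Its percentiles were 29.6, 19.0 and 16.4 with DMSO and 13.2, 12.4 and 4.61 with SNDX-5613. The value of SNDX-5613 replicate 3 came from another summit, 10600 bp from the start, and at the summit of the other 5 libraries, 11210 bp from the start, it had no peak. The closest libraries of the groups were 16.4 and 13.2, and the height change of -0.53 (SE 0.23) had an adjusted p of 0.324 in limma. The other NLRC5 sites present in all libraries overlapped between groups. The site 94880 bp from the start, just past the end of the gene, stood at 44.8, 58.0 and 52.9 with DMSO and 52.0, 64.5 and 26.8 with SNDX-5613. The site 71937 bp from the start, over a coding exon, ranked at 25.1, 8.45 and 6.35 with DMSO and 9.31, 7.51 and 9.79 with SNDX-5613. Here too the value of SNDX-5613 replicate 3 came from another summit, 72110 bp from the start. At the summit of the other 5 libraries, 71935 bp from the start, it had no peak.

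Of the NLRC5 sites called only in the 5 deeper libraries, the one 56433 bp from the start was the strongest, at heights of 35.1, 29.9 and 34.6 with DMSO and 29.4 and 22.5 with SNDX-5613. Along the gene, 3 sites ranked lower, whereas at the promoter, the exonic site and the site past the end of the gene the groups overlapped, and differences between these sites were not tested.

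**Figure D2:**
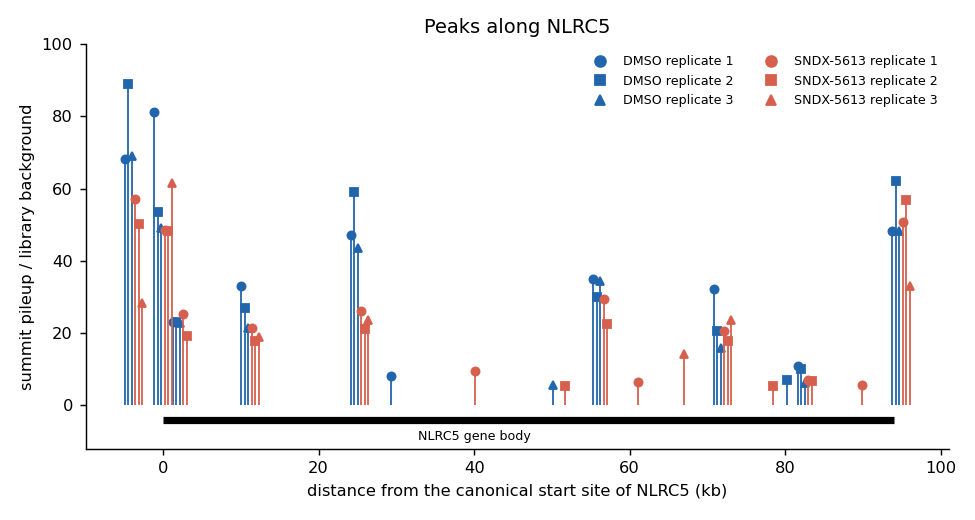
Height of each peak along NLRC5 (y axis, summit pileup divided by the library's background) against distance from the canonical start site in kb, with libraries shifted sideways for legibility. Each stem is 1 library (blue DMSO, red SNDX-5613), and a library without a peak has no stem. At the site 25275 bp downstream the 3 DMSO stems reach 43.5 to 59.0 and the 3 SNDX-5613 stems 21.2 to 26.2.

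The member sites that ranked higher with SNDX-5613 numbered 2. The first, at chr6:32843971-32844969 in the windows of TAP1 and PSMB9, covered the upstream start of long PSMB9 transcripts and was 47 bp from a start of PSMB8, which encodes another immunoproteasome subunit. Its percentiles were 85.7, 88.8 and 85.9 with DMSO and 95.8, 92.1 and 96.2 with SNDX-5613. Every treated library was above every control library, with means of 86.8 ± 1.72 and 94.7 ± 2.29 (SD, n = 3, exact p = 0.1). On the height scale the libraries were 142, 159 and 127 with DMSO and 170, 128 and 180 with SNDX-5613, which overlap, and the log2 change of 0.29 (SE 0.10) had an adjusted p of 0.20 in limma. Ranked within each library by summit pileup, the site did not overlap between groups and stood higher with SNDX-5613 (exact p = 0.1), as did 9.88% of all sites.

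The second, at chr6:33317516-33318401 and 3966 bp upstream of TAPBP, was 102 bp from a start of ZBTB22, a zinc finger gene. It stood at 69.5, 81.0 and 69.7 with DMSO and 83.8, 81.0 and 93.8 with SNDX-5613. SNDX-5613 replicate 2 exceeded DMSO replicate 2 by 0.0060 percentile points, so the separation was minimal, and ranked over the sites of the 5 deeper libraries the groups overlapped. The log2 change in height was 0.31 (SE 0.11, adjusted p = 0.217 in limma).

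Over the 20 member sites the median difference in mean percentile was -2.85, against -0.09 over all 33405 sites, and 11 sites were below 0 and 9 above. Without SNDX-5613 replicate 3 the median over the same 20 sites was 0.04, and over the 27 member sites present in the 5 deeper libraries it was -1.59, against -0.13 over all such sites. The median log2 change in height was -0.11 over the members and -0.01 over all sites. Member sites were wide, with a median of 887 bp against 664 bp for all sites in 6 libraries. Many of them lie at promoters, and widths were not compared with promoter sites alone.

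**Figure D3:**
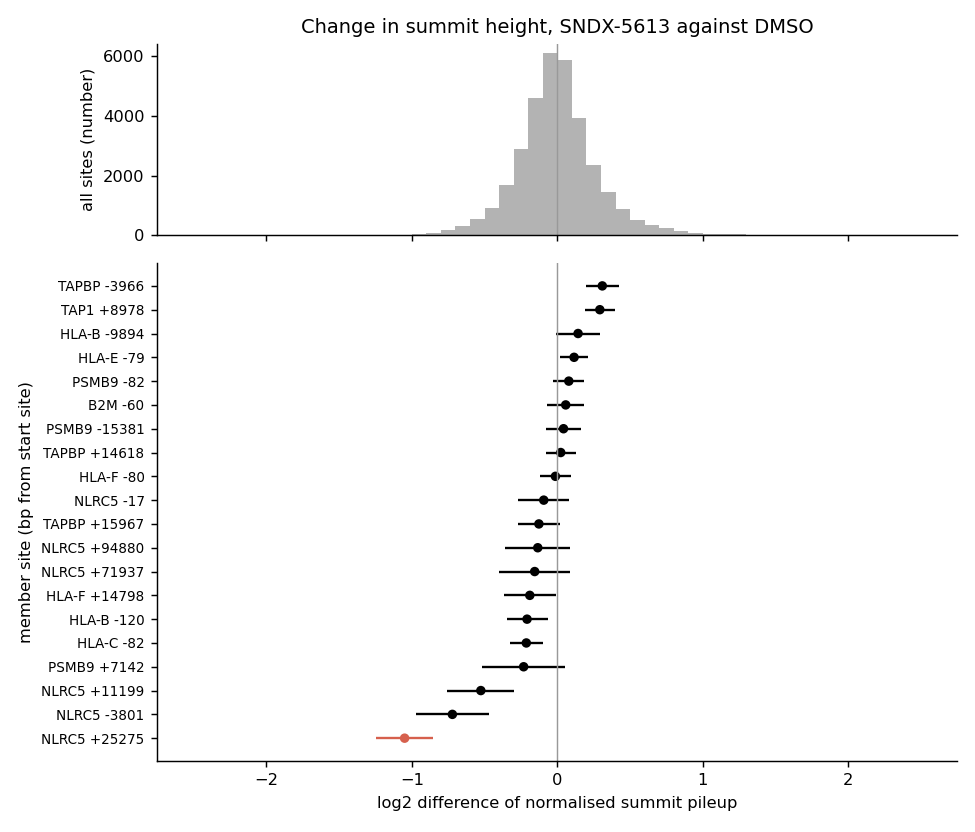
Log2 difference of normalised summit pileup, SNDX-5613 minus DMSO (x axis), as the number of sites per bin for all 33405 sites (upper panel, y axis, bins of 0.1) and for each of the 20 member sites with its SE from limma (lower panel). The red point, the NLRC5 site 25275 bp from the start, is the only one with an adjusted p under the threshold of 0.05, and it lies at -1.05. Labels give the nearest member and the distance in bp from its canonical start, negative upstream.

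The wider pathway was read from 16 other genes of peptide supply, loading and regulation. In each, the promoter site with the highest mean rank was used, and 15 of 16 had one in all 6 libraries, against the 64.5% of protein-coding genes given above, ERAP2, a trimming peptidase, having one in 5. By rank, 2 of the 15 were higher with SNDX-5613, 3 lower and 10 overlapping, against 7.12% higher and 8.12% lower of 13341 sites at promoters of protein-coding genes, and the median difference was 0.083 percentile points. None of the 15 was called by limma, where the lowest adjusted p was 0.104. The sites of PSMB8, ranked higher, and of TAP2, overlapping, are also member sites, so each was counted in both lists.

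Both genes that ranked higher were PSMB8, described above, and IRF1, an interferon-induced activator of class I promoters. IRF1 stood at 91.2, 92.0 and 90.1 with DMSO and 97.2, 94.0 and 96.2 with SNDX-5613. All treated libraries were above all controls by rank, whereas its heights of 188, 200 and 164 with DMSO and 211, 160 and 213 with SNDX-5613 overlapped. The log2 change in height after normalization was 0.19 (SE 0.09, limma, adjusted p = 0.374).

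The genes that ranked lower were PSME1, ERAP1 and TAPBPL. PSME1 encodes a subunit of the PA28 proteasome activator, and its promoter stood at 96.9, 98.1 and 97.1 with DMSO and 93.3, 90.3 and 89.2 with SNDX-5613. Its heights were 221, 244 and 195 with DMSO and 181, 140 and 171 with SNDX-5613, so they separated as well, with a log2 change of -0.31 (SE 0.09, limma, adjusted p = 0.104). ERAP1, the peptidase that trims peptides in the endoplasmic reticulum, went from 95.5, 89.6 and 91.0 to 86.1, 88.6 and 82.6. Its heights of 202, 181 and 163 with DMSO and 147, 134 and 142 with SNDX-5613 also separated (limma, adjusted p = 0.344). TAPBPL, a relative of tapasin that edits peptides, went from 63.2, 62.8 and 65.7 to 47.8, 56.0 and 58.5, the greatest drop of the list. The TAPBPL heights separated too, at 83.2, 83.5 and 75.3 with DMSO and 57.1, 56.3 and 71.1 with SNDX-5613 (limma, adjusted p = 0.415). PSME2, the partner of PSME1, overlapped between groups with means of 93.3 and 92.7.

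The highest promoters of the list were RFX5, a subunit of the factor that recruits NLRC5, and CANX, an endoplasmic reticulum chaperone, with mean percentiles of 99.0 and 98.4 over the 6 libraries. RFXAP, another RFX subunit, was low at 62.7, and all 3 overlapped between groups. The TAP2 promoter, which also lies in the window of PSMB9, stood at 77.0, 87.6 and 85.2 with DMSO and 84.2, 89.2 and 83.6 with SNDX-5613 without separation.

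**Figure D4:**
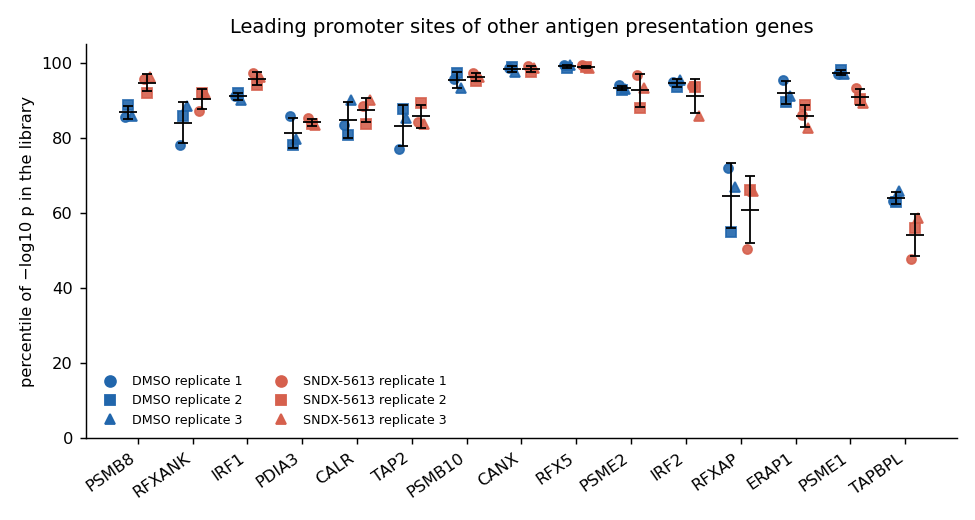
Percentile of −log10 p (y axis, 0 to 100) at the leading promoter site of the 15 other antigen presentation genes with a peak in all 6 libraries, ordered by the difference between groups from PSMB8 on the left to TAPBPL on the right. Points are libraries (blue DMSO, red SNDX-5613), and bars are the mean and SD of 3 libraries. PSMB8 and IRF1 have all red points above all blue points, and ERAP1, PSME1 and TAPBPL the opposite.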

How the data were processed

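ATAC-seq peak lists of 6 HLF libraries were analysed, 3 with DMSO and 3 with SNDX-5613, grouped by their labels. Per the study's methods and the submitters' processing notes, the authors used Omni-ATAC, Bowtie2 2.3.4.1, Picard 2.20.0 and MACS2, with Trim Galore 0.6.7, SAMtools and deepTools 3.5.4 also listed. Peaks were called per library. Duplicates were marked with Picard, while their removal, a Tn5 shift and a mapping quality filter are not given in the sources used here: a shift of a few bases hardly moves merged sites, while multiply mapped reads could affect the class I genes.

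The deposited lists give, per summit, the authors' fold enrichment over local background and the authors' −log10 p and −log10 q. Of the deposited consensus sets only the regions were used, to look up member sites. Each fold and −log10 p pair was solved for the whole-number pileup and background that return both (tolerance 0.002 in −log10 p, wider in proportion for p of extreme size), which succeeded for 100% of summits in each library, against 1.04% to 1.37% with p shuffled between summits. The most frequent background served as the measure of depth, since read numbers were not analysed here. Positions were matched to hg38, and 0 regions lay past a chromosome end.

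Overlapping peaks were merged into sites (chromosomes 1 to 22, X and Y). Group mean percentiles were compared with an exact permutation test (two-sided) and heights by limma 3.58.1 in R 4.3.3 (trend and robust, Benjamini-Hochberg over all sites, threshold 0.05), tested on simulated data. Motifs were searched on both strands with Python 3.11.15, in RefSeq promoter windows of GRCh38.p14 or in hg38. Alternatives covered thresholds, ranking values, window size, normalization, library weights, a replicate block and leaving out each library. Sites named were each member's leading promoter site, the canonical one where it differed, all called sites and the strongest others, plus pathway genes that were called or had the highest and lowest mean percentile. Because the study's methods describe dishes divided between groups, libraries of equal replicate number were also compared as pairs. Their deviations from the group means did not correlate (Pearson r across sites 0.026, -0.003 and 0.021). The members and gene lists were chosen with earlier results of these data known. A few listed genes and 1 sequence are not reported here.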

Additional observations from a re-analysis of the deposited data

How the results depend on the processing

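With −log10 q of at least 3, the median percentile difference over the members turned to 0.957 and 1 site ranked lower, against 7.66% of all sites. In that setting 2 NLRC5 sites were no longer peaks in the shallow SNDX-5613 replicate 3. Requiring a peak to cover 50% of its site left 4 of the 41 member sites in all 6 libraries, against 7.95% of all sites. It left 4 member promoters in all 6 libraries. By fold enrichment 5 sites ranked lower, against 6.83% of all sites. By percentile over each library's own list 1 ranked higher and 1 lower, against 0.994% and 7.68%. With windows of 2 kb 1 ranked higher, against 8.54%. Leaving out 1 library gave 19 to 27 member sites in all remaining libraries, against 21% to 36.7% of all sites, and 0 to 1 lost, against 1.23% to 3.6%. Of the member sites, 2 to 3 ranked higher, against 12.3% to 14.5% of all sites, and 3 to 6 lower, against 12.2% to 14.4%. The median difference was -3.67 to 0.0404, and 0 to 1 sites changed in height, against 0.38% to 3.81% of all sites. Over the sites of the 5 deeper libraries, chosen after seeing the data, 1 ranked higher and 4 lower, against 14.3% and 14.4% of all such sites. With only sites above the median height, 0 changed, since the NLRC5 site was not among them. For the CCAAT box, 3 of 7 genes had a match up to 100 bp from the summit of the leading promoter site. There were 7 up to 250 bp from that summit, against 6 in the promoter windows. For HLA-B and TAPBP the leading site lay 9894 bp upstream and 1180 bp downstream of the canonical start, outside the windows shown. The counts around summits and in windows thus do not search the same sequence. TAP1 and PSMB9, which share a leading site, were counted separately. With a replicate block (pairs of equal number) 7 sites ranked lower and 3 higher, against 16.5% and 16.2% of all sites, the median difference stayed at -2.85 and 1 site changed in height, while limma called 414 of all sites higher and 164 lower, against 318 and 89 without it. The intronic NLRC5 site kept its direction in every fit that held it, with log2 changes of -1.12 to -0.91 and adjusted p from 3.56e-05 to 0.118.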
